A study of Mus musculus with 12 samples.

Results

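The trimethylation of lysine 4 of histone H3 (H3K4me3) was set against the trimethylation of lysine 27 (H3K27me3) in bone marrow progenitors from which the Integrator gene Ints11 had been deleted. The series holds 12 libraries, and 4 of them belong to this comparison: the H3K4me3 and the H3K27me3 library of each of 2 knockout (KO) mice, named by their numbers in the labels as KO_399 and KO_401. They were chosen by their labels alone, as the libraries of the KO group with either antibody. The KO animals were Mx1Cre+ Ints11 flox/fox mice, in the labels' spelling, on the C57BL/6 strain. Their WT littermates, WT_407 and WT_409, received the same injection of poly(I:C), and cKit+ bone marrow cells of all groups were sorted 4 days after it. The design text describes the cells as Lin-cKit+. Poly(I:C) raises interferon, which switches on the Mx1 promoter and so the Cre recombinase. That promoter is not limited to blood cells, and the WT mice share the interferon response but not the deletion. No ages or sexes are used here.

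Integrator cleaves nascent RNA at small nuclear RNA genes, enhancers and many protein-coding genes, and Ints11 is its endonuclease. H3K4me3 is laid down by the SET1 and MLL methyltransferases around transcription starts, where unmethylated CpG dinucleotides recruit several of these complexes, and H3K27me3 is laid down by Polycomb repressive complex 2 with the catalytic subunits Ezh1 and Ezh2. Promoters that carry both marks are called bivalent and were first described at developmental genes of stem cells. In blood progenitors H3K27me3 is known for covering genes of other tissues and regulators of other blood lineages. A bulk assay cannot tell both marks on the same molecule from different marks in different cells or on different alleles.

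Promoter sequences of 4 genes are given as examples from the classes described here, and they are not typical of the CpG content of their classes. Each is the 250 bases before the start listed by RefSeq (GRCm38.p6, the assembly of mm10), written 5′ to 3′ on the gene's strand, with every CpG in capitals. Meis1, a homeobox cofactor of Hox proteins in stem cells, has this stretch at chr11:19018970-19019219 (minus strand), and all 250 bases lay under both marks in both KO mice. Wnt1, a secreted signalling ligand, has it at chr15:98789607-98789856 (plus strand), under H3K27me3 alone. Myb, a transcription factor of blood progenitors, has it at chr10:21160985-21161234 (minus strand), under H3K4me3 alone. Alb, the liver gene for serum albumin, has it at chr5:90460620-90460869 (plus strand), with no listed peak of either mark.
Meis1: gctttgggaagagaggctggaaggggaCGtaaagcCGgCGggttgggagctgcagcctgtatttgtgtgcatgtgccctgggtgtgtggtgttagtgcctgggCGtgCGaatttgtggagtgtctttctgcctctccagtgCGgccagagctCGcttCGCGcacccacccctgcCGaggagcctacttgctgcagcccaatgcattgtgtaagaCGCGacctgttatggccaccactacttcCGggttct
Wnt1: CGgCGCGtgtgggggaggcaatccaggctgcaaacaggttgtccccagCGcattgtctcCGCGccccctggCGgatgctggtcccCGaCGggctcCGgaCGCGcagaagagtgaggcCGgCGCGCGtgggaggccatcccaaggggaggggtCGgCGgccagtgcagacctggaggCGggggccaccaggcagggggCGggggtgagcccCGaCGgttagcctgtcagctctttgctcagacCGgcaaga
Myb: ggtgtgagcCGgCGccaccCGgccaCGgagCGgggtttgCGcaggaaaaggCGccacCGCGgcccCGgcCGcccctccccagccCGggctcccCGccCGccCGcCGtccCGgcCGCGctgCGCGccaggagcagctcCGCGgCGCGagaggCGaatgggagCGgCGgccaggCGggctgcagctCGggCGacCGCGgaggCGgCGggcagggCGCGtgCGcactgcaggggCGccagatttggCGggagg
Alb: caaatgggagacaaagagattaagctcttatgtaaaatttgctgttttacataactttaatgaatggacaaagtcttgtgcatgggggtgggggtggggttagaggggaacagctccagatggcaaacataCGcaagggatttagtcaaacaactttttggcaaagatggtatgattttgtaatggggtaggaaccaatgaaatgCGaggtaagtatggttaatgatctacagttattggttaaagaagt
The stretches hold 13, 23, 40 and 2 CpG in the order Meis1, Wnt1, Myb and Alb. Those with either mark are thus richer in CpG than that of Alb. Over 300 bases around the start, genes with both marks had a median of 24 CpG and those with H3K27me3 alone 17. The medians were 21 with H3K4me3 alone and 2 with neither mark. The counts of Meis1 and Wnt1 are therefore in the reverse order of their class medians. That of Myb lies above the upper quartile of its class, 28 CpG.

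The H3K4me3 lists held 27676 peaks in KO_399 and 25090 in KO_401, and the H3K27me3 lists 6542 and 7653. Total reads per library are unknown here. The most frequent background of a library, recovered from the peak values and proportional to its depth at a given fragment length, was 2.65 and 1.93 reads per position for H3K4me3 and 3.3 and 3.67 for H3K27me3 in KO_399 and KO_401. Every listed peak had a deposited fold over 5, so a site without a peak may hold signal under that value. The median fold in KO_399 and KO_401 was 6.97 and 7.92 for H3K27me3, nearer to this cut than the 17.0 and 17.6 for H3K4me3. How far the cut sets the coverage and overlap of the marks was not tested. KO_399 stood apart from the other mice, with the most H3K4me3 and the least H3K27me3. Of the progenitor markers, Kit, Myb, Runx1 and Lyl1 carried H3K4me3 alone in both KO mice, Gata2, Tal1 and Flt3 both marks, and Cd34 differed between the mice. Of the markers of cells that the sort should lack, Cd3e, Cd8a, Slc4a1, Hbb-bs and Ms4a1 carried neither mark, whereas the granulocyte genes Ly6g, Ltf and Camp and the endothelial gene Cdh5 carried H3K4me3 alone, and Cd4, Col1a1 and Cxcl12 carried both. Whether the latter reflect progenitors or other cells was not tested.

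The listed peaks of H3K4me3 and H3K27me3 covered largely separate bases of the KO genome. H3K4me3 covered 44.5 Mb in KO_399 and 36.7 Mb in KO_401, H3K27me3 15.2 and 23.1 Mb, and only 3.21 and 3.0 Mb lay under both. The bases under both marks were therefore 7.21% and 8.17% of the H3K4me3 bases (7.69 ± 0.682%, SD, n = 2) and 21.1% and 13.0% of the H3K27me3 bases (17.1 ± 5.79%, SD, n = 2). The Jaccard index, the shared bases over the bases of either mark, was 0.0568 and 0.0528. H3K4me3 covered 21.4 Mb more than H3K27me3 on average, a difference with the smallest p that 2 libraries against 2 allow (two-sided exact permutation test, p = 0.333), and the difference had the same direction in each mouse (29.3 and 13.5 Mb). The number of peaks differed by 19285.5 on average, with the same p of 0.333 by the exact permutation test.

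**Figure D1:**
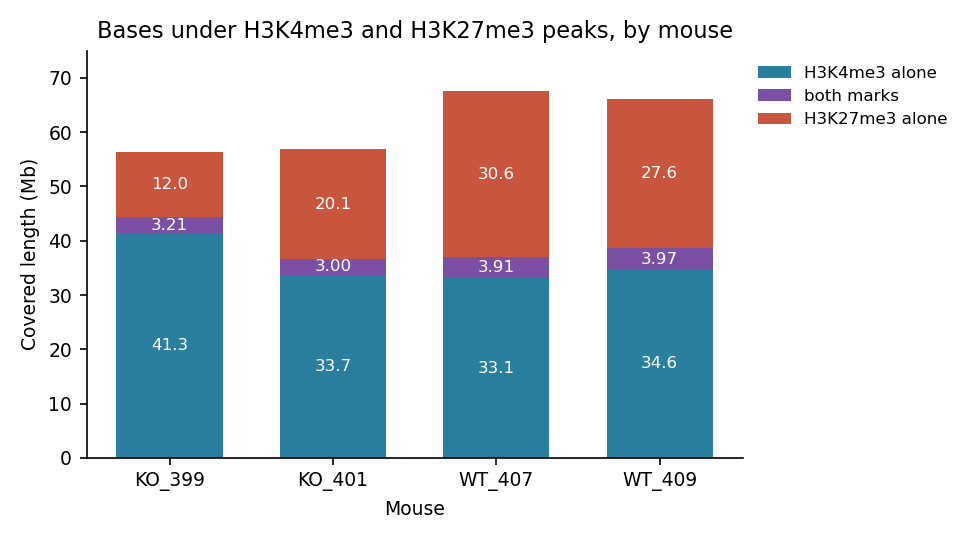
Bars show, for each mouse, the length in Mb covered by H3K4me3 peaks alone, by both marks and by H3K27me3 peaks alone, 1 bar per mouse. The segment for both marks is 3.21 and 3.0 Mb in the KO mice and 3.91 and 3.97 Mb in the WT mice, and the segment for H3K27me3 alone is shortest in KO_399.

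The positions of the double-marked bases recurred less well between the mice than those of either mark. Bases covered in both KO mice came to 35.7 Mb for H3K4me3, 14.7 Mb for H3K27me3 and 2.12 Mb for both marks. The Jaccard index between the mice was 0.786 for H3K4me3, 0.626 for H3K27me3 and 0.521 for the bases under both. A base can recur under both marks only where each mark recurs.

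A minority of H3K4me3 peaks but a large share of H3K27me3 peaks shared at least 1 bp with the other mark. Of the H3K4me3 peaks, 3120 (11.3%) in KO_399 and 3271 (13.0%) in KO_401 were shared, and of the H3K27me3 peaks 3076 (47.0%) and 3051 (39.9%). The H3K27me3 peaks without H3K4me3 numbered 3466 and 4602, so the mice differed in these far more than in the shared ones. Most shared H3K4me3 peaks sat inside H3K27me3 peaks: 62.2% and 71.8% of them were covered by H3K27me3 over their whole length, and the summits of 87.6% and 88.5% lay within an H3K27me3 peak. The reverse was rare, with 7.12% and 3.51% of the shared H3K27me3 peaks wholly under H3K4me3. Most shared H3K27me3 peaks held a single H3K4me3 peak (2901 and 2806), while 152 and 205 held 2, and 23 and 40 held 3 or more. Seen from H3K4me3, marks that flanked each other without touching were rare. Of the H3K4me3 peaks without H3K27me3, 97.8% and 97.2% had no H3K27me3 peak within 5 kb on either side. The share of the less numerous H3K27me3 peaks with a flanking H3K4me3 peak was not counted.

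Sharing varied with strength in both lists, and the strongest peaks differed most between the marks. The peaks of each list were ranked by the deposited −log10 q and split into 4 groups of nearly equal size. For H3K27me3 the shared percentage was higher in each stronger group, from 25.4% in the weakest to 65.6% in the strongest in KO_399 and from 18.8% to 59.0% in KO_401. For H3K4me3 the weakest group stood at 10.4% and 13.5%, the middle groups had the highest values, 17.0% and 16.4% in KO_399 and 19.2% and 17.9% in KO_401, and the strongest group the lowest, 1.23% and 1.55%. H3K4me3 peaks of 4 kb or more were shared in 3.48% and 4.03% of cases, against 15.0% and 19.3% of those from 0.5 to 1 kb and 7.34% and 11.2% of those under 0.5 kb. The median width of shared H3K27me3 peaks was 2249 and 2903 bp, against 1407 and 1936.5 bp without H3K4me3, and a wider peak has more room for an overlap. Peaks of a library are not replicates, and these percentages describe the lists.

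**Figure D2:**
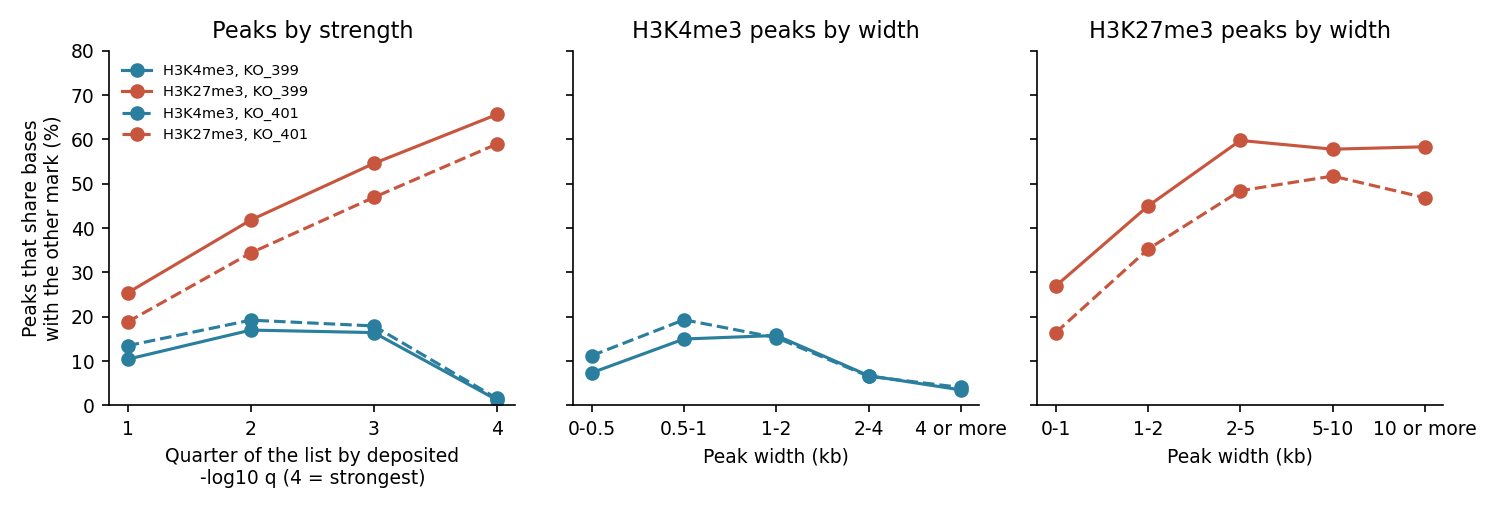
Lines give the percentage of peaks that share at least 1 bp with the other mark, for KO_399 (solid) and KO_401 (dashed), by rank of the deposited −log10 q (left) and by peak width in kb for H3K4me3 (middle) and H3K27me3 (right). In the strongest group 65.6% and 59.0% of H3K27me3 peaks but 1.23% and 1.55% of H3K4me3 peaks were shared.

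Shared peaks lay at gene ends more often than the others. Within 2 kb of a gene end were 71.7% and 72.2% of the shared H3K4me3 peaks in KO_399 and KO_401, and 42.6% and 45.4% of those without H3K27me3. For H3K27me3 peaks the values were 72.3% and 72.2% when shared, and 43.7% and 41.7% when not. Peaks of the 4 libraries that touched or overlapped were joined into 32140 regions. Of these, 19531 held H3K4me3 alone in both mice, 2056 H3K27me3 alone, 2286 both marks in both mice, and the remaining 8267 differed between the mice. Regions with both marks were the longest, with a median of 3877 bp, against 2982.5 bp with H3K27me3 alone and 1602 bp with H3K4me3 alone. Such a region must join peaks of all 4 libraries, so the rule itself favours its length. In 2262 of the 2286 the marks overlapped by at least 1 bp in both mice. Regions with both marks reached a gene end in 81.6% of cases, against 57.2% and 50.6% for H3K27me3 alone and H3K4me3 alone. A longer region reaches a gene end more easily, and length was not accounted for.

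Among 21883 protein-coding genes, H3K4me3 alone was the most frequent state. A gene was counted as carrying a mark when a peak covered at least 1 bp no farther than 2 kb from the first or last base of the gene, a rule that does not see starts inside a gene. By it, 59.1% of the genes carried H3K4me3 in both KO mice and 15.9% carried H3K27me3 in both. H3K4me3 alone in both mice was found at 10198 genes (46.6%), both marks at 2165 (9.89%), H3K27me3 alone at 950 (4.34%) and neither at 7100 (32.4%), while 1470 (6.72%) differed between the mice. The 2 classes with H3K27me3 depended on the threshold and the mouse: with peaks of a fold of at least 10 only, 194 genes carried both marks and 217 H3K27me3 alone, and without KO_399 the latter numbered 1572. Among genes of the same state in both mice, H3K27me3 was present at 17.5% of the 12363 with H3K4me3 and at 11.8% of the 8050 without it. With a fold of at least 10, H3K4me3 alone was found at 10878 genes and neither mark at 8508. The share with H3K27me3 was then lower among genes with H3K4me3 than among those without it. The order of these shares thus depended on the threshold, although some genes carried both marks at either. At 1936 of the 2165 genes with both marks (89.4%) the marks overlapped in both mice within 2 kb of an end, and at 106 they lay at opposite ends.

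Genes with both marks had less H3K4me3 than genes with H3K4me3 alone, but similar medians of H3K27me3 to genes with that mark alone. Within 5 kb of the gene ends, the median H3K4me3 length was 1787 bp in KO_399 and 1364 bp in KO_401 with both marks, and 2989 and 2635.5 bp with H3K4me3 alone. The median deposited fold of the strongest H3K4me3 peak within 2 kb was 22.8 and 16.7 with both marks, against 61.8 and 62.8. The median H3K27me3 length was 2852 and 3950 bp with both marks and 2799 and 3996 bp with H3K27me3 alone. Among the 2165 genes, the fold of the strongest H3K4me3 peak and that of the strongest H3K27me3 peak were hardly related (Spearman's rho across genes −0.138 and −0.0901, genes of a library sharing its depth). Genes with neither mark were short, with a median span of 7464 bp, against 20837 bp for H3K4me3 alone and 28340 bp for both.

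The position of the marks was read at the 14730 genes with a single listed start, where classes were set again within 2 kb of that start. H3K4me3 alone was found at 6873 (46.7%), both marks at 1107 (7.52%), H3K27me3 alone at 599 (4.07%) and neither at 5327 (36.2%). The absence of a mark within 2 kb from the classes without it is set by this rule. Over the genes with both marks, H3K4me3 formed a narrower band around the start than H3K27me3. These percentages over genes do not show that one band lay inside the other at each gene. In KO_399, an H3K4me3 peak covered the start in 90.5% of the 1107 genes, the position 1 kb downstream in 43.0% and that 2 kb downstream in 11.2%. H3K27me3 covered the same positions in 77.4%, 75.5% and 35.9% of them. In KO_401 the H3K4me3 values were 82.3%, 28.5% and 7.77%, and the H3K27me3 values 88.3%, 87.4% and 58.1%. Where H3K4me3 was alone the band was wider, with 81.9% and 73.7% of the 6873 genes covered 1 kb downstream. In KO_399, coverage by H3K27me3 over the genes with both marks was highest 400 bp downstream of the start, at 85.4%, and that by H3K4me3 200 bp downstream, at 91.7%.

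**Figure D3:**
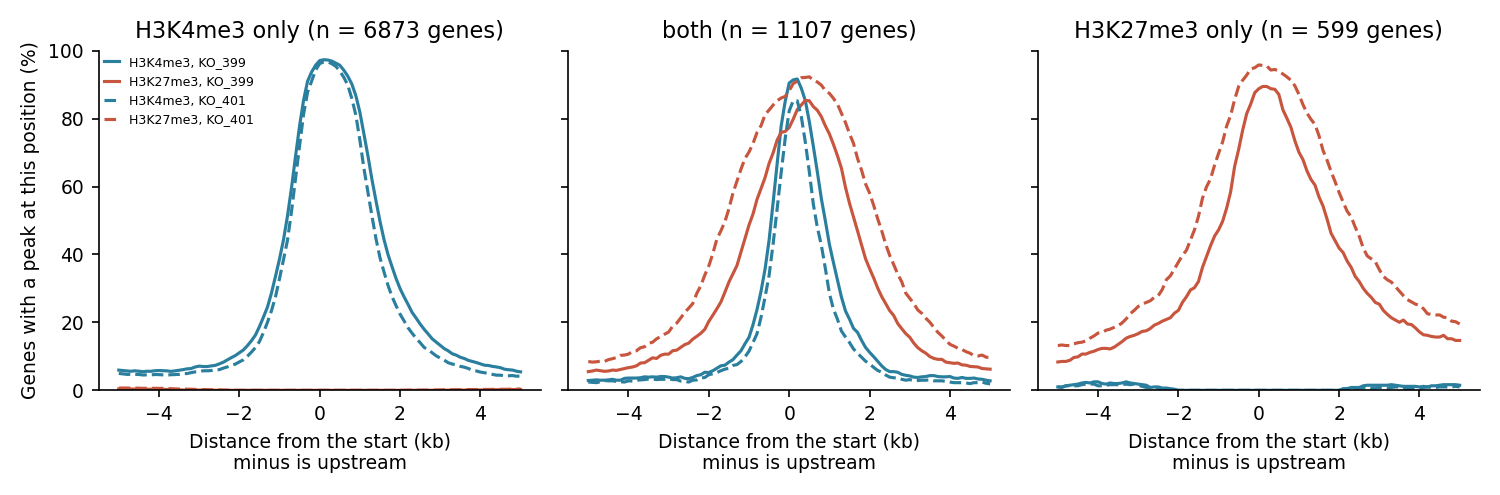
Curves give the percentage of genes whose position at a given distance in kb from the listed start lies under a peak, for H3K4me3 (blue) and H3K27me3 (red) in KO_399 (solid) and KO_401 (dashed), by class at the start. In the class with both marks the H3K4me3 curve is narrower than the H3K27me3 curve: 2 kb downstream they stand at 11.2% and 35.9% in KO_399 and at 7.77% and 58.1% in KO_401.

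CpG content set the genes with neither mark apart from all others, and those with both marks close to those with H3K4me3 alone. Over 300 bases around the start, 250 before and 50 after, the number of CG dinucleotides divided by the number expected from the C and G content had a median of 0.787 with H3K4me3 alone, 0.754 with both marks, 0.610 with H3K27me3 alone and 0.162 with neither, against 0.559 over all 14730. Median GC content was highest with both marks, at 66.0%, against 60.3%, 62.3% and 45.3%. In bins of the CpG ratio, genes with both marks came to 0.633% of the 3631 starts up to 0.2, 12.5% of the 2840 from 0.6 to 0.8 and 11.4% of the 4105 above 0.8. Genes with H3K27me3 alone were most frequent at a middle ratio, with 8.69% of the 1783 starts from 0.4 to 0.6 and 3.07% above 0.8. The letters TATAAA, searched on the gene's strand and its reverse, were found in 8.13% of the windows with both marks, 6.95% with H3K4me3 alone, 7.18% with H3K27me3 alone and 26.7% with neither, against 14.3% of all. These are matches of letters and not sites of a factor.

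**Figure D4:**
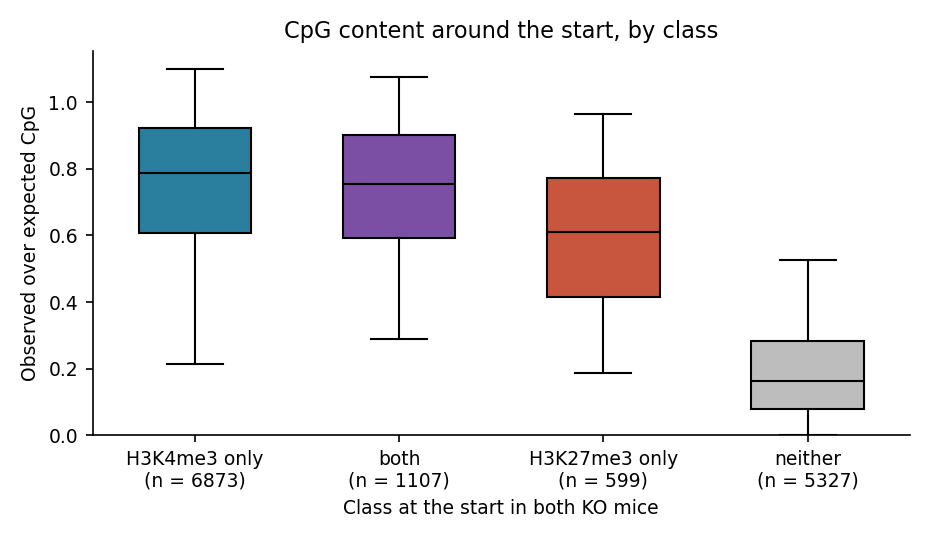
Boxes show the observed over expected CpG ratio in 300 bases around the start for genes of each class in both KO mice (line, median; box, quartiles; whiskers, 5th and 95th percentiles). Medians are 0.787, 0.754, 0.610 and 0.162 from left to right, and the box of the class with neither mark lies below the other boxes.

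Hoxa9, Hoxa7, Meis1 and Gata2 had the most bases under both marks, by the mean of the KO mice. Within 5 kb of its ends, the homeobox gene Hoxa9 (chromosome 6, 52223097 to 52227370) had 9377 bp under both marks in KO_399 and 10004 bp in KO_401. Its H3K4me3 was strong for such a gene, with a fold of 57.0 and 48.2. Meis1 (chromosome 11, 18880428 to 19019651), whose product binds DNA with Hox proteins, had 8319 and 7613 bp under both marks. The zinc finger factor Gata2 (chromosome 6, 88193891 to 88207032), needed for stem cell maintenance, had 6964 and 6986 bp, so that in KO_401 all its H3K4me3 lay within H3K27me3. The other genes among the 10 highest were Hoxa7, Hoxa10, Hoxa3, Zfp503, Nkx2-3, Hic1 and the Notch target Hes1, with means from 8579 bp at Hoxa7 to 4695.5 bp at Hes1. H3K4me3 peaks of 4 kb or more with at least 50% of their bases under H3K27me3 numbered 20 and 14, and they lay at the ends of 7 genes in both mice: Fst, Hoxa7, Hoxa9, Irf5, Meis1, Pcdh7 and Sox4.

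Ranking by the weakest of the 4 strongest peaks of a gene gave another kind of gene with both marks. The 10 highest were Dqx1, Epb41, Elp5, Arid3c, Smg6, Ppp1r9b, Wnk4, Wdr18, Vps25 and Cir1. Several of these spans border a neighbour with H3K27me3: at Wdr18 and Cir1 no base within 5 kb lay under both marks in either mouse, and Smg6 (chromosome 11, 74925854 to 75164448) ends within the span of Hic1 (chromosome 11, 75161377 to 75170255). At Epb41, a membrane skeleton gene, 2240 and 1477 bp were under both. With H3K4me3 alone the 10 highest were Pafah1b2, Sik3, Actb, Pkn2, Arpc2, Crkl, Oga, Scaf4, Arl8b and Cltc. Several of these are widely expressed genes of the cytoskeleton, signalling or membrane traffic. Pafah1b2 and Sik3 share a peak with a fold of 75.4 and 90.1. With H3K27me3 alone they were Catsper3, Pitx1, Uncx, Wnt1, Hoxd10, Hoxd11, Hoxd9, BC107364, Dgkz and Dscaml1. The classes hold within 2 kb of the ends, and some of these genes had the other mark within 5 kb. H3K4me3 covered 750 and 868 bp at Dgkz. In KO_399 alone it covered 2119 bp at BC107364, 605 bp at Catsper3 and at Pitx1, and 326 bp at Hoxd9. In the class with H3K4me3 alone, H3K27me3 covered 1726 bp at Crkl and 1279 bp at Oga, in KO_401 only. Pitx1, a limb and pituitary factor, had 15752 and 19235 bp of H3K27me3, and Uncx, a homeobox gene of the skeleton, 13548 and 13977 bp with no H3K4me3 in either mouse. Catsper3 borders Pitx1 and shares its peak.

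The 4 Hox clusters differed in the share of their length under both marks. From the first to the last gene end, the Hoxa cluster (chromosome 6, 52155367 to 52260880) was under both marks over 19.1% of its length in KO_399 and 17.6% in KO_401, with H3K27me3 over 50.2% and 59.2%. The Hoxb cluster was under both over 3.34% and 2.27%, the Hoxd cluster over 2.49% and 1.15%, and the Hoxc cluster over 1.62% and 0.492%. The Hoxc cluster was under H3K27me3 almost throughout, at 88.0% and 98.7%. In the WT mice, Hoxa was under both marks over 17.3% and 12.6%. Of the 39 Hox genes, 16 carried both marks and 16 H3K27me3 alone, against 9.89% and 4.34% of all genes, and only Hoxb4 carried H3K4me3 alone. Both marks were found at 6 of 11 Hoxa and 7 of 10 Hoxb genes, and H3K27me3 alone at 7 of 9 Hoxc and 6 of 9 Hoxd genes.

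Of 30 regulators of blood stem and progenitor cells, 13 carried H3K4me3 alone (43.3%, against 46.6% of all genes), 11 both marks (36.7%, against 9.89%) and none H3K27me3 alone (against 4.34%). Kit, the receptor of stem cell factor used in the sort, had 4814 and 4738 bp of H3K4me3 within 5 kb of its ends and no H3K27me3, and Runx1, Spi1, Myc and Gfi1 were of the same class. Both marks were present at Meis1, Hlf, Mycn, Erg, Egr1, Mecom, Tal1, Prdm16, Flt3, Hoxa9 and Gata2. At Tal1, which directs early blood fate, 5665 and 4771 bp of H3K4me3 stood beside 2287 and 4991 bp of H3K27me3. At Flt3, a receptor of multipotent and lymphoid progenitors, they were 2027 and 1751 bp beside 2702 and 3480 bp. Median H3K4me3 over the 30 genes was 5367 and 4981 bp, against 1604 and 1326 bp over all protein-coding genes.

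Lists of mature blood lineages were counted in the same way, beside 46.6% of all genes with H3K4me3 alone, 9.89% with both marks and 32.4% with neither, and lineages were not tested against each other. H3K4me3 alone was found at 17 of 22 granulocyte and monocyte genes, among them Mpo, Elane, S100a8 and Csf1r, and both marks at Fcgr3, Klf4 and Irf8. Of 20 T and NK lymphoid genes, 4 carried H3K4me3 alone, 4 both marks (Tcf7, Tbx21, Cd4 and Eomes, mostly regulators), 8 neither and Bcl11b alone H3K27me3 without H3K4me3. Of 16 B lymphoid genes, 6 carried H3K4me3 alone (37.5%), the regulator Ebf1 both marks (6.25%) and 6 neither, shares near those of all genes. Of 22 erythroid and megakaryocyte genes, 7 carried H3K4me3 alone and 10 neither mark. The latter include the globin genes Hba-a1, Hba-a2, Hbb-bs and Hbb-bt, whose near-identical copies make their calls uncertain. The 3 with both marks were Sptb, Zfpm1 and Epor. In WT, 3 of the 22 carried neither mark, while 10 differed between the WT mice. Interferon-stimulated genes carried H3K4me3 alone in 25 of 26 cases, against 46.6% of all genes, and none carried both marks. All 4 mice had received poly(I:C), and in WT 22 of the 26 were in the same class.

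Genes of the chromatin machinery carried mostly H3K4me3 alone. Of all protein-coding genes, 46.6% carried H3K4me3 alone, 9.89% both marks and 32.4% neither. Of 34 Polycomb genes and H3K27 demethylases, 23 carried H3K4me3 alone, among them Ezh2, Eed, Suz12 and Rnf2, and 7 both marks: Kdm6b, Epop, Pcgf2, Cbx2, Cbx8, Cbx6 and Bmi1. Pcgf2, Cbx2, Cbx8, Cbx6 and Bmi1 are subunits of Polycomb repressive complex 1, and Kdm6b is an H3K27 demethylase. Of 20 H3K4 methyltransferase and demethylase genes, 18 carried H3K4me3 alone and none both marks, the other 2 having neither; no difference between these lists was tested. Of 17 Integrator subunit genes, 16, Ints11 included, carried H3K4me3 alone, and Ints3 both marks. A peak at the promoter of Ints11 does not check the deletion. Among 31 genes of cell cycle arrest and apoptosis (inhibitors of cyclin-dependent kinases and targets of p53), 23 carried H3K4me3 alone and 5 both marks: Phlda3, Plk2, Cdkn2a, Cdkn2b and Cdkn1c.

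Lists of genes of other tissues were read against the shares of all genes, 46.6% with H3K4me3 alone, 9.89% with both marks, 4.34% with H3K27me3 alone and 32.4% with neither, and differences between lists were not tested. Of 98 developmental transcription factors outside the Hox clusters, 53 carried H3K27me3 alone, 25 both marks, and none H3K4me3 alone or neither, while 20 differed between the mice. Their median H3K27me3 was 10713.5 and 12056 bp, against 0 over all genes in both mice. H3K27me3 alone was found at Pax6, Sox2, Nkx2-5 and Myod1, master regulators of eye, neural, heart and muscle fate. Both marks were found at Gata6, Twist1 and Lhx1. Of 40 signalling ligands and antagonists, 16 carried H3K27me3 alone, such as Shh and Bmp4, and 11 both marks, such as Bmp2 and Wnt10b. Of 92 potassium channel genes, 28 carried neither mark, 24 both, 23 H3K27me3 alone and 6 H3K4me3 alone. Of 44 collagen genes, 16 carried neither, 11 both and 9 H3K27me3 alone, and of 42 glutamate and GABA receptor genes 17, 6 and 7. Neither mark was found at 42 of 53 keratin genes. Of the more uniform lists, 22 of 28 effector genes of heart, skeletal muscle and liver carried neither mark, and 1098 of 1106 odorant receptor genes did. Of 28 ubiquitously expressed genes, 26 carried H3K4me3 alone and none H3K27me3.

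**Figure D5:**
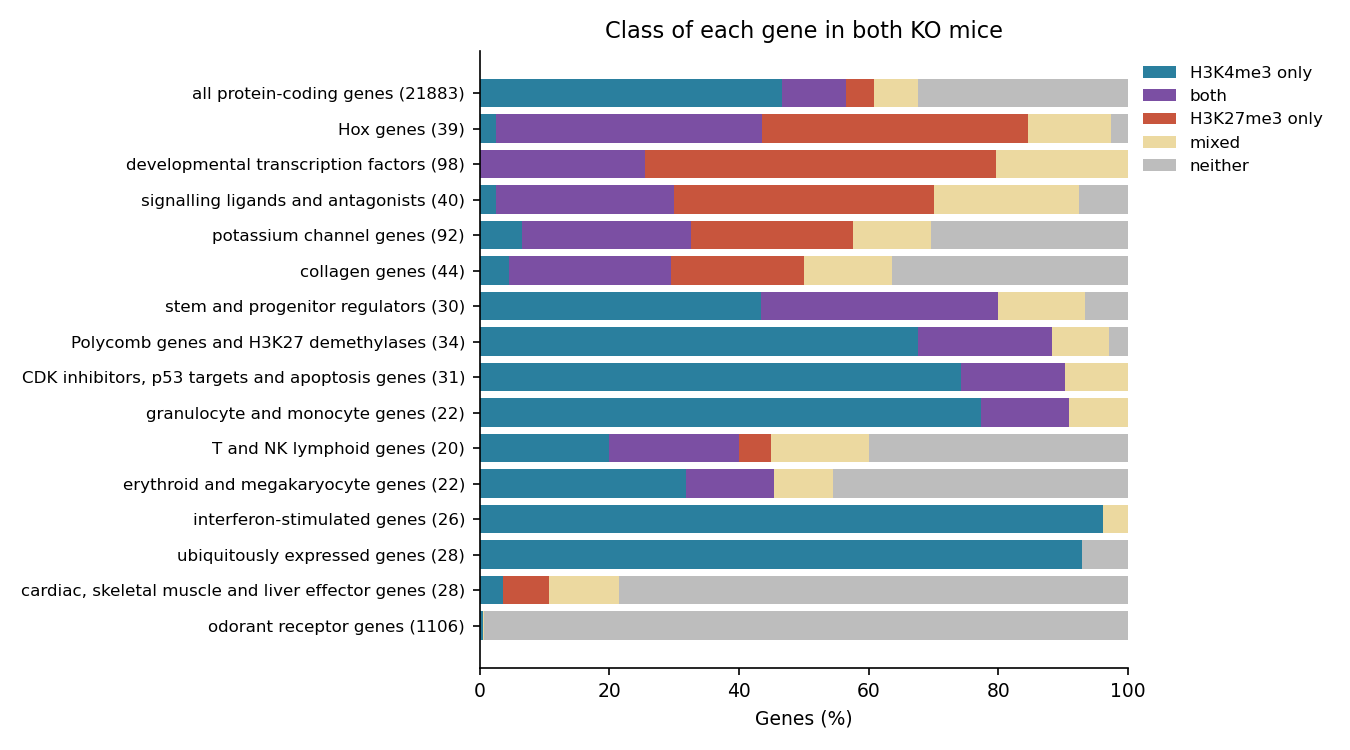
Each bar divides a gene list, with its number of genes in brackets, into the 5 classes in both KO mice, in percent. Hox genes, developmental transcription factors and signalling genes hold the largest shares with H3K27me3, 26 of 28 ubiquitously expressed genes carry H3K4me3 alone and 1098 of 1106 odorant receptor genes carry neither mark.

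Of 1005 microRNA hairpins, 102 lay under H3K4me3 alone in both KO mice (10.1%), 20 under both marks (1.99%), 16 under H3K27me3 alone (1.59%) and 828 under neither (82.4%). A microRNA represses messages that pair with its seed, bases 2 to 8. The mature sequences, from RefSeq, are written 5′ to 3′ with the seed in capitals, and are shown for 3 families with members both under both marks and under H3K27me3 alone (miR-9, miR-196 and miR-193), for miR-10b in a Hox cluster, and for 2 blood microRNAs under H3K4me3 alone.
miR-9-5p: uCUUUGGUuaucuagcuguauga
miR-196a-5p: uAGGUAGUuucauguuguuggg
miR-196b-5p: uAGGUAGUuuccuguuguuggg
miR-193a-3p: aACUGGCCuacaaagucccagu
miR-193b-3p: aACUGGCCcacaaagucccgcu
miR-10b-5p: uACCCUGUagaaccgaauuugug
miR-223-3p: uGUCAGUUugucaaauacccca
miR-142a-3p: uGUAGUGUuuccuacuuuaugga
The neural miR-9 is made from 3 hairpins, and Mir9-1 (chromosome 3, 88215598 to 88215686) and Mir9-2 (chromosome 13, 83738814 to 83738885) lay under both marks, but Mir9-3 (chromosome 7, 79505264 to 79505353) under H3K27me3 alone. Of the Hox cluster microRNAs, Mir196b between Hoxa9 and Hoxa10 (chromosome 6, 52230081 to 52230165) lay under both marks, whereas Mir196a-2 in the Hoxc cluster (chromosome 15, 102973350 to 102973434) and Mir10b in the Hoxd cluster (chromosome 2, 74726070 to 74726137) lay under H3K27me3 alone. Mir193a lay under both marks and Mir193b under H3K27me3 alone. Mir223 and Mir142, microRNAs of myeloid and of all blood cells, lay under H3K4me3 alone. All 20 hairpins under both marks and all 16 under H3K27me3 alone had the same class in the WT mice. So did 95 of the 102 under H3K4me3 alone (93.1%) and 803 of the 828 under neither (97.0%). These counts start from the KO class and leave out the 39 hairpins that differed between the KO mice.

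The KO mice differed from each other in both marks. H3K27me3 status differed at 863 genes, 816 of them with the mark in KO_401 alone, and H3K4me3 status at 652, 608 of them with the mark in KO_399 alone. Of the 1470 genes that changed class between them, 549 had H3K4me3 alone in KO_399 and both marks in KO_401, 358 both marks in KO_399 and H3K27me3 alone in KO_401, 223 neither mark in KO_399 and H3K27me3 alone in KO_401, and 208 H3K4me3 alone in KO_399 and neither mark in KO_401. The opposite moves were few, with 31 genes from both marks to H3K4me3 alone, 15 from H3K27me3 alone to both and 15 from H3K27me3 alone to neither. At 41 genes H3K4me3 was alone in KO_399 and H3K27me3 alone in KO_401.

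Set against the WT mice, the KO mice had fewer bases and genes under both marks. Both marks covered 3.21 and 3.0 Mb in KO (3.10 ± 0.147 Mb, SD, n = 2) and 3.91 and 3.97 Mb in WT (3.94 ± 0.0490 Mb), without overlap between the groups (two-sided exact permutation p = 0.333, the smallest possible). H3K27me3 without H3K4me3 covered 12 and 20.1 Mb in KO and 30.6 and 27.6 Mb in WT (exact permutation p = 0.333). The KO mean was 78.7% of the WT mean for bases under both marks and 55.2% for H3K27me3 alone. The share of H3K27me3 bases under H3K4me3 was accordingly 5.09 points higher in KO (17.1 ± 5.79% against 12 ± 0.906%, SD, n = 2 each, exact permutation p = 0.333), but 0.998 points without KO_399 (13.0% in KO_401, and 11.3% and 12.6% in WT). The percentage of H3K4me3 bases under H3K27me3 was lower in KO, at 7.21% and 8.17%, than in WT, at 10.6% and 10.3% (exact permutation p = 0.333). Of the genes with H3K27me3, 67.9 ± 6.22% in KO and 65 ± 0.484% in WT also carried H3K4me3 (SD, n = 2 each, exact permutation p = 1). Over the 14 such comparisons of KO with WT, Benjamini-Hochberg adjustment left no p of these exact permutation tests under 0.359. The highest H3K27me3 fold was 18.3 and 18.6 in KO but 22.7 and 28.6 in WT. Median H3K27me3 folds were 6.97 and 7.92 in KO and 7.09 and 7.95 in WT. The recovered H3K27me3 background was 3.3 and 3.67 reads per position in KO, and 3.09 and 3.15 in WT. Whether the enrichment of the libraries accounts for the lower KO values was not tested.

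Most genes had the same class in both genotypes, and most of those in another class in both KO mice lacked H3K27me3 there. In the WT mice, 43.3% of genes carried H3K4me3 alone, 13% both marks, 6.66% H3K27me3 alone and 30.9% neither, and 6.06% differed between the mice. Of the 2849 genes with both marks in WT, 2031 had both in KO, 244 H3K4me3 alone, 6 H3K27me3 alone and 568 differed between the KO mice. Of the 1458 with H3K27me3 alone in WT, 893 were of that class in KO, 137 had neither mark, 22 both and 3 H3K4me3 alone. The 6 genes with both marks in WT and H3K27me3 alone in KO include Hs6st3, Hpcal4, Sv2b, Gsg1l and Rtbdn. At Hpcal4, a neuronal calcium sensor gene, H3K4me3 within 2 kb of the ends was 561 and 507 bp in WT and absent from both KO lists. Among the 22 with H3K4me3 in KO and not in WT was Wnt10a, with 0 bp in both WT mice and 922 and 537 bp in KO_399 and KO_401, beside at least 7725 bp of H3K27me3 in each mouse. The others include Inha, Erbb4, Cftr and Adra2a. These genes were named after their values were seen.

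The 3 genes with H3K27me3 alone in WT and H3K4me3 alone in KO were Taok1, Cdkn1a and Crybb1. Cdkn1a encodes the cyclin-dependent kinase inhibitor p21, a p53 target. Within 2 kb of its ends it had 366 and 575 bp of H3K27me3 and no H3K4me3 in WT_407 and WT_409, against 2244 and 406 bp of H3K4me3 and no H3K27me3 in KO_399 and KO_401. Within 5 kb, H3K4me3 was present in all 4 mice, with 2575 and 2611 bp in the WT mice and 6605 and 3228 bp in the KO mice. H3K27me3 covered 2322 and 2760 bp in the WT mice, none in KO_399 and, in KO_401, 1886 bp. RefSeq lists 2 starts for Cdkn1a, at the gene end and 2790 bp inside the span, and the windows at the gene ends do not see the inner start. Within 2 kb of the inner start, H3K4me3 covered 4001 and 2758 bp in KO and 2328 and 2335 bp in WT. H3K27me3 covered none there in KO_399, 1886 bp in KO_401, and 2322 and 2760 bp in the WT mice. The change of class at Cdkn1a holds for the windows at the gene ends, and around the inner start KO_401 and both WT mice had both marks.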

How the data were processed

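Chromatin of cKit+ bone marrow cells was precipitated for H3K4me3 and H3K27me3, fixed and sheared per the labels' protocols. The submitters' processing notes name the build mm10 and the tools Bowtie2, MACS2, SAMtools, deepTools, FastQC and Trim Galore. Each of 8 libraries had a peak list of its own. Per deposited peak, the score is a whole number, the fold is a ratio of pileup to background, and the strength is given as the −log10 p-value and the −log10 q-value. Such values are the authors' and served only to rank, filter or describe peaks of a list. All folds exceed 5, a filter that no label records. The 4 input libraries were not analysed here. The depth behind each list is known only through the recovered background: taking the fold as pileup over background and the −log10 p as a Poisson value, a whole pileup solved 100% of summits within 0.001. No interval is given for overlaps, since the lists carry no counts outside peaks.

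Peaks on chromosomes 1 to 19, X and Y were merged per library, and shared bases were counted per mouse (minimum 1 bp). Genes came from RefSeq (GRCm38.p6). Listed starts with strand were given for 79.9% of 21883 protein-coding genes, under the 80% set as the minimum, so either end of the span was used, with a window of 2 kb. The numbers in the titles were read as mice and pair the 2 marks of a number; the labels do not state that they are animals, and the values per mouse and the block rest on this reading. Libraries of the marks, and KO and WT mice, were compared by two-sided exact permutation tests, and no test was made across peaks or genes. Genes named are the 10 highest per class by the lowest percentile of −log10 q, the 10 with the most bases under both marks, and members of the lists. Some members of these lists are counted but not reported here by name. Members and lists were chosen with earlier results of these data known. Alternatives were a fold of 10, equal numbers of peaks, windows of 1 and 5 kb, listed starts, whole spans, summits and leaving out each mouse. Interval code was tested on simulated data. Python 3.11.15, NumPy 2.4.6, pandas 2.3.3, SciPy 1.17.1 and Matplotlib 3.10.9 were used.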

Additional observations from a re-analysis of the deposited data

How the results depend on the processing

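Of 65 recomputed values, 58 were counted as the same, 7 moved and none reversed. The same meant an unchanged direction for differences, within 1 SD for shares and within 1.5 times for gene counts. The p-values and the size of a difference did not enter this count. With only peaks of a fold of at least 10, 10.5% of H3K27me3 bases lay under H3K4me3 and 2.14% of H3K4me3 bases under H3K27me3, with 194 genes carrying both marks and 217 H3K27me3 alone. Counted in peaks and not in bases, the shares were 43.4% and 12.2%. Leaving out each KO mouse in turn gave 980 to 1572 genes with H3K27me3 alone, the higher number without KO_399, and a KO minus WT difference in the share of H3K27me3 bases under H3K4me3 of 0.998 to 9.19 points. The covered length differed by 21.4 Mb and the number of peaks by 19285.5 between the marks with the mouse as a block too (exact sign-flip p = 0.5, the smallest that 2 pairs allow), and crossing the marks between the KO mice, which ignores the pairing, gave 16.4% and 7.76%. Within 2 kb of the listed starts of 17491 genes, an alternative chosen after seeing the data, 1482 genes carried both marks, 8523 H3K4me3 alone, 735 H3K27me3 alone and 5718 neither. The planned change from starts to gene ends was not run, because gene ends are the main rule. Lists held to a fold over 5 leave weaker signal unseen, the mice are 2 per genotype, and a gene without a mark here is one without a listed peak.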

Other observations

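The longest region with both marks held no protein-coding gene. It lay on chromosome 8 from 123537293 to 123625616 (88324 bp) and holds 48 genes of the 5S ribosomal RNA, a component of the large ribosomal subunit, in the RefSeq table. H3K27me3 covered 87202 bp of it in KO_399 and all 88324 bp in KO_401, WT_407 and WT_409. H3K4me3 covered 36687 bp in KO_399, 9267 bp in KO_401, 18224 bp in WT_407 and 13025 bp in WT_409. The highest fold there was 18.3 and 18.1 for H3K27me3 and 12.1 and 7.17 for H3K4me3 in KO_399 and KO_401. The 5S copies are nearly identical, so the placement of reads among them is uncertain, and the sources used here do not say how the aligner treated them.

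Little H3K27me3 was listed on the X chromosome, and least in KO_399. It came to 37 peaks and 32.9 kb in KO_399, 94 peaks and 179 kb in KO_401, 182 peaks and 346 kb in WT_407, and 165 peaks and 366 kb in WT_409. As a percentage of all H3K27me3 bases this was 0.217%, 0.773%, 1.00% and 1.16%. For H3K4me3 the percentages were in the same order but within a narrow range, at 2.48%, 2.53%, 2.53% and 2.54%. Of 966 X-linked genes, 2.59% carried H3K27me3 in KO_399 and 6.83% in KO_401, against 17.0% and 20.5% of autosomal genes. Of the 41 genes with H3K4me3 alone in KO_399 and H3K27me3 alone in KO_401, 10 were X-linked, among them Zfp711, Dlg3 and Hs6st2.

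The same 41 genes include C1qa, a subunit of complement C1q made by macrophages, and Siglec1, a macrophage receptor, both picked out after their values were seen. Within 2 kb of its ends, C1qa had 1580 bp of H3K4me3 in KO_399 and none in the other 3 mice, and 1309 bp of H3K27me3 in KO_401, 1681 bp in WT_407 and 1451 bp in WT_409 but none in KO_399. Siglec1 had 700 bp of H3K4me3 in KO_399 alone, and H3K27me3 in the other 3 mice. The neighbouring genes C1qb and C1qc had H3K4me3 in KO_399 and WT_407 and no H3K27me3 in any mouse. The share of macrophages in the sorted cells was not tested.

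Of the 7100 genes with neither mark at their ends, 690 (9.72%) held an H3K4me3 peak inside the span in both KO mice and 194 (2.73%) an H3K27me3 peak. They include Lmo2, Gata1, Ash2l and Ywhaz, which are expressed in blood cells or widely, so the class holds genes whose starts lie inside the listed span. Long noncoding RNA genes carried both marks in 4.09% of 12727 cases, H3K27me3 alone in 3.47%, H3K4me3 alone in 19.1% and neither in 67.9%.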
